A study of Mus musculus with 9 samples.

Results

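Interferon-stimulated genes are the genes that a cell transcribes when an interferon binds its receptor, and 39 of them were followed through 3 mouse cell lines. The 39 were given as a list of symbols covering antiviral effectors, RNA sensors, the ISG15 system, both subunits of the type I interferon receptor, Stat2 and 3 genes of antigen processing. The rule used no measured value, although the list was drawn up with earlier results of these data known, and each of the 39 had 1 row among the 54347 genes of the table. Poly-A RNA was sequenced from 3 libraries per line. Hox-WT is a hematopoietic progenitor line immortalized with Hoxb8-ER from the bone marrow of a wildtype mouse. Hox-URE was made in the same way from a mouse homozygous for deletion of the URE, an enhancer upstream of *Spi1*, which encodes the transcription factor PU.1. The line URE-AML, labelled B22, is a line of AML blast-like cells that carries the same homozygous deletion (UREd/d in both). All 3 lines were grown in IMDM with fetal calf serum, IL-3, IL-6, SCF and estradiol, and the labels name no interferon. Each genotype or disease state is 1 line, so what belongs to the deletion, to leukemia or to the line itself cannot be told apart. No label ties the libraries of a line to separate cultures, and p-values then measure only the spread between these libraries.

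Type I interferons signal through IFNAR1 and IFNAR2, which activate the kinases JAK1 and TYK2. These phosphorylate STAT2, which joins IRF9 in a complex that binds the interferon-stimulated response element (ISRE) in promoters. Type II interferon acts through the gamma-activated sequence (GAS). Many of the genes reached in this way block viral replication, and others report viral RNA, modify proteins with ISG15 or load peptides on MHC class I. Hematopoietic progenitors are known to keep some of these genes on without added interferon.

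Total counts were 20331064 to 28588718 per library, and 3 counts, the floor used here, corresponded to 0.104 to 0.153 CPM, the counts of a gene scaled to the same effective library total. *Spi1* was at 96.5 to 110 CPM in Hox-WT, at 0 to 0.0414 CPM in Hox-URE and at 2.5 to 6.35 CPM in URE-AML. Hox-WT thus lay above both UREd/d lines, as their genotype labels have it. The UREd/d lines differed from each other although they share that label. The summed level of 6 hematopoietic progenitor markers was 2020 to 2310 CPM in Hox-WT, 1050 to 1570 CPM in Hox-URE and 263 to 306 CPM in URE-AML. Of these markers *Kit* had means of 175, 43 and 96.9 CPM and *Cd34* of 1430, 926 and 0.0135 CPM, and *Flt3* was at 0 in every URE-AML library. The summed level of 6 mast cell and basophil markers was 483 to 838 CPM in Hox-WT, 1610 to 5890 CPM in Hox-URE and 31.4 to 62.7 CPM in URE-AML, with *Fcer1a* at 0 in both Hox lines. The summed level of 9 neutrophil precursor markers was 5610 to 9040, 2620 to 4000 and 11300 to 25900 CPM, with *Ltf* and *S100a9* at 0 in Hox-URE. Its members did not move alike, since *Ctsg* had means of 1990, 3320 and 3710 CPM and *Mpo* of 5040, 5.04 and 192 CPM, and 8 of the 9 were called lower in Hox-URE than Hox-WT. Of these calls, that of *Camp* was lost without Hox-URE library 1 or 2 or Hox-WT library 3. That of *Ltf* was lost without library 1 of both Hox lines. Over the alternatives the adjusted p was 0.000939 to 0.0708 for *Camp* and 8.03e-06 to 0.0538 for *Ltf*. The summed level of 7 monocyte and macrophage markers was 292 to 300, 842 to 944 and 14.2 to 22.5 CPM, with *Mertk* and *C1qa* at 0 in all 3 lines and *Ccr2* at a mean of 885 CPM in Hox-URE. Of the 5 of these that were tested, *Ccr2* was called higher and the other 4 lower in Hox-URE than Hox-WT. The call of *Cd68* (-1.10) was lost without Hox-WT library 1, 2 or 3 or without library 1 of both Hox lines. Its adjusted p was 0.0105 to 0.132 over the alternatives. That of 4 megakaryocyte markers was 4.31 to 6.35, 16 to 46.4 and 1.13 to 3.69 CPM, and erythroid and lymphoid markers summed to at most 15.9 and 43.3 CPM in any library. These lists move with the lines, and their part in the differences given here was not tested. In bulk RNA, fewer cells of a type and less RNA per cell cannot be told apart. The summed level of 6 markers of plasmacytoid dendritic cells, which make much interferon, was 0.525 to 1.49 CPM in Hox-WT, 0.204 to 8.3 CPM in Hox-URE and 0.0404 to 0.129 CPM in URE-AML, with *Siglech*, *Ccr9* and *Klk1* at 0 in all 9 libraries.

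Levels of the members spanned from no read to 1010 CPM. Of the 39, 29 passed the filter on low counts and were tested, and 10 did not: *Ifit1*, *Ifit3*, *Ifi44*, *Mx1*, *Mx2*, *Oas1a*, *Oas2*, *Oas3*, *Oasl1* and *Oasl2*. These 10, which include every MX and OAS gene of the list, had at most 20 counts in any library, and *Ifi44* and *Mx2* had none in all 9. At the other end, 15 members were at 10 CPM or more in every library and 3, *Ifitm2*, *Ifitm3* and *Psmb8*, were at 100 CPM or more in every library. Per length, as counts per kilobase scaled to the same total in each library, *Ifitm3* had the highest level in Hox-WT (mean 1490) and Hox-URE (2600) and *Ifitm2* in URE-AML (1290), while *Stat2* was at 2.64, 4.48 and 6.99 in the 3 lines on the same scale.

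**Figure D1:**
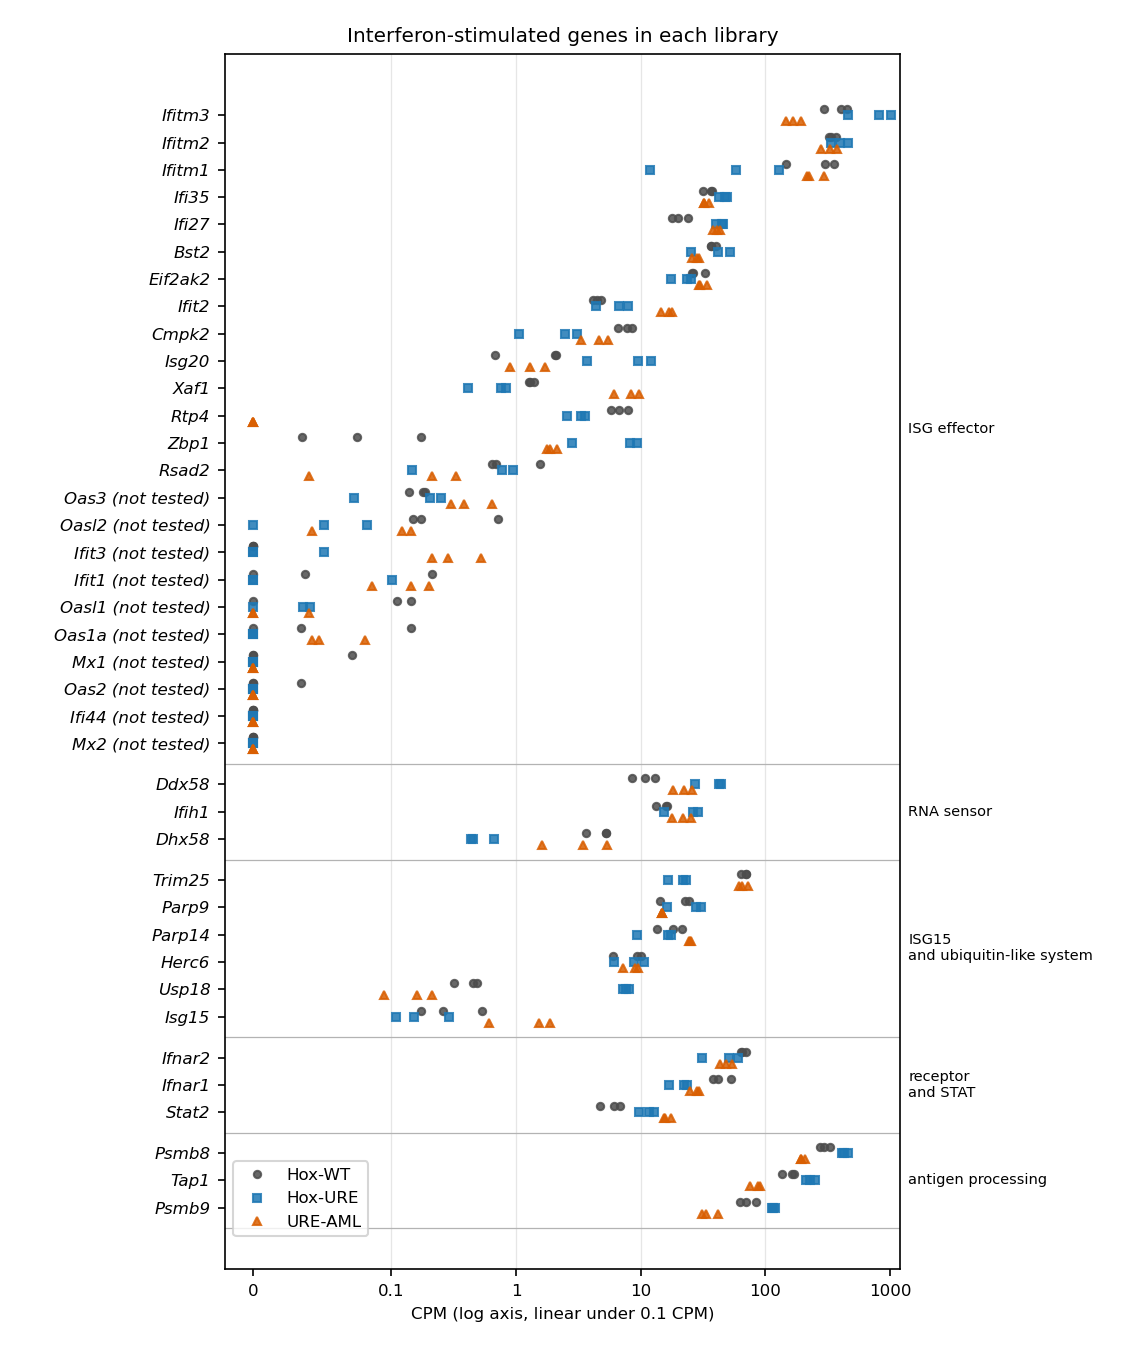
CPM of the 39 genes on a log axis (linear under 0.1 CPM), 1 row per gene grouped by role, 1 point per library with the 3 lines by colour and shape. The 10 genes that were not tested lie at 0.714 CPM or less, and the IFITM genes and antigen processing genes lie at the right.

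Lines were compared with edgeR's quasi-likelihood test, with p adjusted by Benjamini-Hochberg over all 13082 tested genes, and calls needed an adjusted p under 0.05 with a fold change over 1.5. Every adjusted p below comes from that fit unless another is named, and errors of log2 fold changes are standard errors. In Hox-URE against Hox-WT, 9 of the 39 members were called higher, 7 lower, 13 were tested and not called and 10 were not tested. Among the 29 tested members 55.2% were called in that comparison. Among all tested genes 37.2% were, 21.3% higher and 15.9% lower. For URE-AML against Hox-WT, calls fell on 15 of the 29 tested members (51.7%), 7 above and 8 below. There 43.2% of all tested genes had a call, 23.0% above and 20.2% below. For URE-AML against Hox-URE, calls fell on 18 of the 29 tested members (62.1%), 8 above and 10 below. There 42.7% of all tested genes had a call, 20.3% above and 22.4% below. Over the tested members, log2 fold changes had a median of 0.22, -0.12 and -0.10 in the 3 comparisons, against 0.00 over all tested genes in each. Both comparisons with Hox-WT share its libraries. The members thus did not move as 1 block: calls went in both directions in every comparison, and 6 members (*Ifitm2*, *Ifi35*, *Bst2*, *Eif2ak2*, *Herc6* and *Ifnar2*) were called in none.

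**Figure D2:**
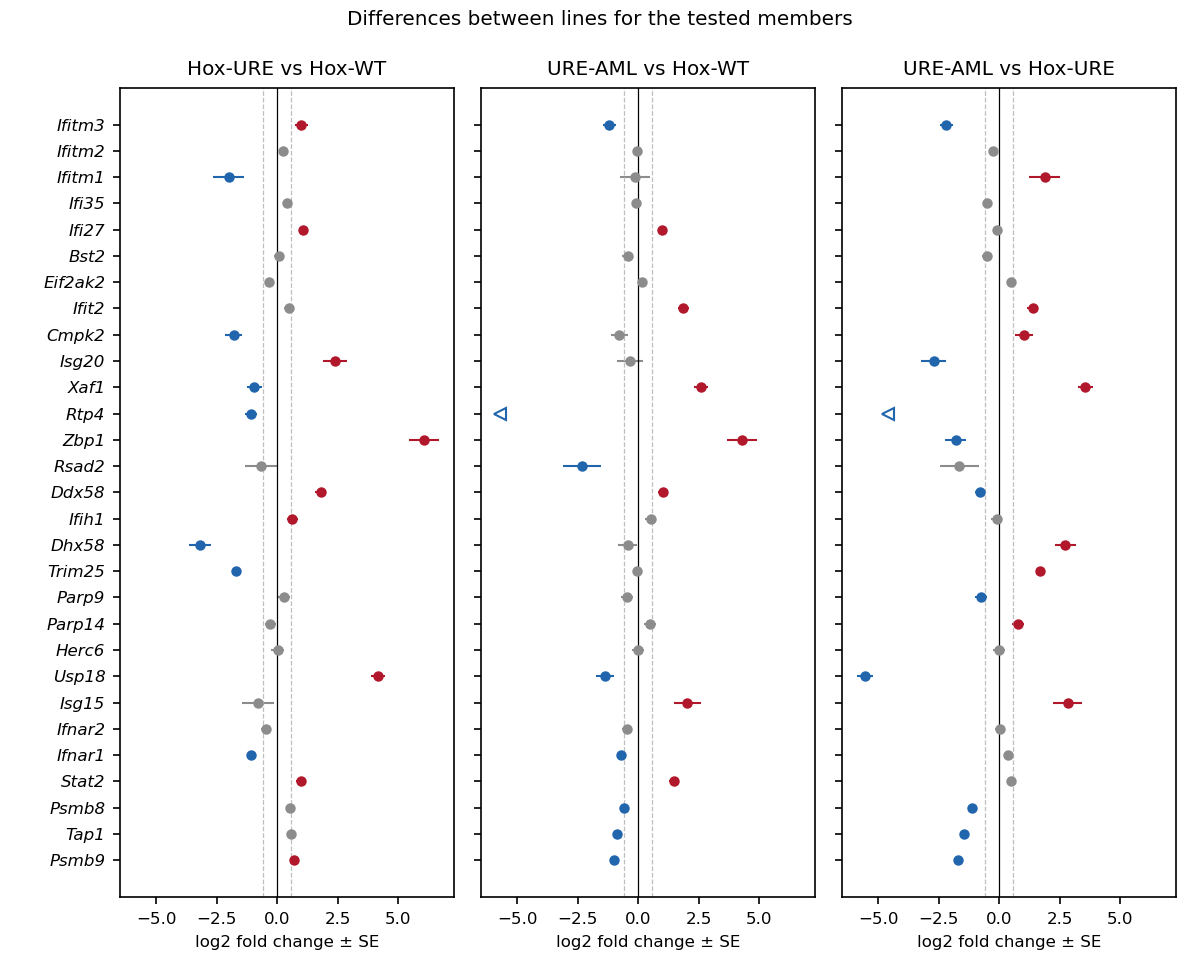
Log2 fold change ± SE of the 29 tested members in the 3 comparisons, in red where called higher, in blue where called lower and in grey where not called. Dashed lines mark a fold change of 1.5, and open triangles give the bound for *Rtp4*, which had 0 counts in URE-AML. Each panel holds calls on both sides of 0.

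None of the ligands rose above the floor at this depth. Of 19 interferon genes, *Ifnb1*, the interferon alpha genes, *Ifng* and the others, 18 had 0 counts in all 9 libraries, and *Ifnz* had at most 2 counts in a library. A count of 0 allows up to 3 counts, or 0.104 to 0.153 CPM.

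*Ifnar1* was lower and *Stat2* higher in both UREd/d lines than Hox-WT, and *Ifnar2* was not called. *Ifnar1* was at 37.7, 52.7 and 41.7 CPM in the Hox-WT libraries 1, 2 and 3, at 17, 23.7 and 22.4 CPM in Hox-URE and at 29.1, 28.1 and 24.7 CPM in URE-AML. The Hox-WT libraries did not overlap those of the other lines, which is a frequent event here, since 60.3% of all tested genes did not overlap between Hox-URE and Hox-WT, 67.6% between URE-AML and Hox-WT and 62.8% between URE-AML and Hox-URE. Its log2 fold change was -1.07 ± 0.16 in Hox-URE (adjusted p = 0.000321) and -0.69 ± 0.16 in URE-AML (adjusted p = 0.00382) against Hox-WT. The second call was lost without Hox-WT library 2, where the change was -0.54, and its adjusted p ranged from 0.000332 to 0.259 over the alternatives.

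*Ifnar2*, the high-affinity subunit, was at 63.9, 64.8 and 69.4 CPM in Hox-WT, 30.9, 51.5 and 60.5 CPM in Hox-URE and 48.4, 43 and 53.8 CPM in URE-AML. Hox-WT again lay above both other lines, but the differences were not called, at -0.47 ± 0.20 (adjusted p = 0.075) and -0.45 ± 0.20 (adjusted p = 0.0843). Without Hox-URE library 3 the first was -0.69 and was called, with an adjusted p of 0.0162 to 0.887 over the alternatives. Both genes lie on chromosome 16, 79648 bases apart, in a cluster with *Il10rb* and *Ifngr2*, receptor subunits for IL-10 and type III interferons and for interferon gamma. *Il10rb* and *Ifngr2* were lower in Hox-URE than Hox-WT too, by -1.26 (adjusted p = 0.000115) and -1.80 (adjusted p = 0.000116) on the log2 scale. The median of the 424 tested genes of chromosome 16 was -0.07 in that comparison. In URE-AML these 2 neighbours parted. *Il10rb* had means of 69.2, 28.9 and 16.3 CPM in the order Hox-WT, Hox-URE, URE-AML, and *Ifngr2* of 16.8, 4.87 and 12.5 CPM.

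*Stat2*, the STAT of the type I pathway, was at 6.82, 6.1 and 4.7 CPM in Hox-WT, 9.75, 11.7 and 12.8 CPM in Hox-URE and 15.4, 17.5 and 15.6 CPM in URE-AML. The 3 lines did not overlap, with Hox-WT lowest and URE-AML highest. The log2 fold change was 0.96 ± 0.17 in Hox-URE (adjusted p = 0.000947) and 1.46 ± 0.17 in URE-AML (adjusted p = 4.21e-05) against Hox-WT. Between the UREd/d lines it was 0.50 ± 0.17 (adjusted p = 0.0238), under the fold threshold, and without Hox-URE library 3 it was 0.59 and was called, with an adjusted p of 0.00872 to 0.78 over the alternatives. *Irf9*, the partner of STAT2 in the complex, which is not in the list, was higher in Hox-URE than Hox-WT (0.85, adjusted p = 0.00195) and lower in URE-AML (-0.69, adjusted p = 0.00621), a call lost without Hox-WT library 3 (-0.58) and with adjusted p values between 0.00136 and 0.265 over the alternatives.

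Of the 3 RNA sensors, *Ddx58* and *Ifih1* were called higher and *Dhx58* lower in Hox-URE against Hox-WT. *Ddx58* encodes RIG-I, which detects short viral RNA, and was at 8.54, 13.1 and 10.8 CPM in Hox-WT, 27.1, 42.2 and 44.2 CPM in Hox-URE and 18, 22.4 and 26 CPM in URE-AML. No libraries overlapped between lines, with Hox-URE highest and Hox-WT lowest. It was 3.49-fold higher in Hox-URE (log2 fold change 1.80 ± 0.23, adjusted p = 9.88e-05) and 2.04-fold higher in URE-AML (1.03 ± 0.22, adjusted p = 0.00271) than Hox-WT.

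*Dhx58* encodes LGP2, the sensor without signalling domains that tunes the other two, and was at 3.63, 5.25 and 5.26 CPM in Hox-WT, 0.437, 0.456 and 0.664 CPM in Hox-URE and 1.61, 3.42 and 5.36 CPM in URE-AML. Hox-URE lay below both other lines, and URE-AML and Hox-WT overlapped. The log2 fold change was -3.19 ± 0.45 in Hox-URE against Hox-WT (adjusted p = 0.000218), 2.74 ± 0.45 in URE-AML against Hox-URE (adjusted p = 0.000469) and -0.44 ± 0.39 in URE-AML against Hox-WT (adjusted p = 0.349). *Ifih1*, which encodes MDA5, a sensor of long double-stranded RNA, was at 16, 16.2 and 13.2 CPM in Hox-WT, 15.4, 26.1 and 28.6 CPM in Hox-URE and 17.7, 25.5 and 22 CPM in URE-AML. Its Hox-URE libraries overlapped those of Hox-WT through library 1. It was called higher in Hox-URE at 0.62 ± 0.22 (adjusted p = 0.0387), just over the fold threshold. The call was lost with the replicate number as a block (0.58, adjusted p = 0.0334) and without Hox-WT library 1, 2 or 3 (0.66, 0.67 and 0.52), Hox-URE library 2 or 3 (0.52 and 0.44) or URE-AML library 3 (0.62), and the adjusted p ranged from 0.00169 to 0.52 over the alternatives. In URE-AML it was 0.52 ± 0.22 above Hox-WT (adjusted p = 0.0711) and was called without URE-AML library 1, at 0.65, with an adjusted p of 0.0133 to 0.691 over the alternatives.

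The IFITM genes encode small membrane proteins that hold back the entry of enveloped viruses, and their 3 neighbours on chromosome 7 behaved in 3 ways. *Ifitm1* was at 146, 298 and 356 CPM in Hox-WT, 11.9, 58.6 and 129 CPM in Hox-URE and 296, 216 and 223 CPM in URE-AML. Every Hox-URE library lay below every library of the other lines, and libraries within each Hox line were far apart. The log2 fold change was -2.01 ± 0.65 in Hox-URE against Hox-WT (adjusted p = 0.0236) and 1.89 ± 0.64 in URE-AML against Hox-URE (adjusted p = 0.0279). The first call was lost without Hox-WT library 2 (-1.93) or 3 (-1.76) or Hox-URE library 2 (-1.94) and the second without Hox-URE library 2 (1.81) or URE-AML library 1 (1.73). Without Hox-URE library 3 the 2 differences grew to -2.93 and 2.80. Over the alternatives the adjusted p was 0.00111 to 0.0735 for the first and 0.00157 to 0.0833 for the second.

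*Ifitm3* went the other way, at 297, 401 and 449 CPM in Hox-WT, 456, 818 and 1010 CPM in Hox-URE and 192, 145 and 166 CPM in URE-AML. The lines did not overlap, with Hox-URE highest and URE-AML lowest. It was higher in Hox-URE than Hox-WT by 0.99 ± 0.26 (adjusted p = 0.00884) and lower in URE-AML than Hox-WT by -1.19 ± 0.26 (adjusted p = 0.00286), a 4.53-fold difference between the UREd/d lines (-2.18 ± 0.27, adjusted p = 6.67e-05). *Ifitm2*, between 280 and 461 CPM in all libraries, was called in no comparison (0.22, -0.05 and -0.27, adjusted p = 0.219, 0.77 and 0.125). *Ifitm2* and *Ifitm1* lie 11233 bases apart and *Ifitm1* and *Ifitm3* 39760 bases apart. Of the 31-base words of the *Ifitm2* transcripts, 55.5% also occur in transcripts of other genes, mostly *Gm45717*, against 20.5% for *Ifitm3* and 11.6% for *Ifitm1*, so the division of reads of *Ifitm2* is uncertain.

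Promoters of these genes are shown because neighbours moved apart here and, for the antigen processing genes below, together. Windows hold 250 bases before and 50 from the RefSeq start site on (GRCm38.p6), read along the strand of the gene, 5′ to 3′, and were found for 29 of the 39 members. Capitals mark the ISRE-type letters searched on both strands, GAAA followed after any 2 bases by GAAA. *Ifitm2* (chr7:140955912-140956211, minus strand) has 1 match upstream of the start site and *Ifitm3* (chr7:141010695-141010994, minus strand) has 2 just after it, while the window of *Ifitm1* (chr7:140967826-140968125, plus strand) has none. The annotated gene of *Ifitm1* begins at base 140967221, before this window, so the sequence around that start was not searched.
Ifitm1: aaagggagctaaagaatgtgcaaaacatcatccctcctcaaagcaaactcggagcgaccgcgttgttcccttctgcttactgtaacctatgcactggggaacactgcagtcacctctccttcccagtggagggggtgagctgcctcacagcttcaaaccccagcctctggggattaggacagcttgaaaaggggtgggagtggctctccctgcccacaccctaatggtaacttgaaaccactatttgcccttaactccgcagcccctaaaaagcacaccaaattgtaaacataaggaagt
Ifitm2: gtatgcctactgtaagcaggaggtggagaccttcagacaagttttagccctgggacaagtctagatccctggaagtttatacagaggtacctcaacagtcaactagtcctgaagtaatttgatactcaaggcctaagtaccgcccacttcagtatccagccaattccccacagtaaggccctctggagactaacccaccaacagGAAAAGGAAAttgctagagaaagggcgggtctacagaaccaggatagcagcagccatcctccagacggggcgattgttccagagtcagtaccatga
Ifitm3: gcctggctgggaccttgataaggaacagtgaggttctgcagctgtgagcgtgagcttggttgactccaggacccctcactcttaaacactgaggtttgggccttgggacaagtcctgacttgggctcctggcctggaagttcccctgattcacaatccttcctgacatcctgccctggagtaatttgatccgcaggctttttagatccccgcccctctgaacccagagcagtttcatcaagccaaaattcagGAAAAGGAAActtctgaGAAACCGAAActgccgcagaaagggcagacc

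The IFIT proteins bind foreign RNA, and *Ifit2* was the only IFIT gene of the list that was tested. It was at 4.46, 4.82 and 4.15 CPM in Hox-WT, 4.4, 7.95 and 6.64 CPM in Hox-URE and 17, 17.9 and 14.5 CPM in URE-AML. URE-AML lay above both Hox lines, which overlapped. It was higher in URE-AML than Hox-WT (1.87 ± 0.21, adjusted p = 3.44e-05) and than Hox-URE (1.38 ± 0.21, adjusted p = 0.000273). Between the Hox lines it differed by 0.50 ± 0.21 (adjusted p = 0.0733), and without Hox-URE library 1 by 0.70, which was called, with an adjusted p of 0.00528 to 0.819 over the alternatives.

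*Ifit3*, 7111 bases from *Ifit2* on chromosome 19, had 0 counts in the Hox-WT libraries, 0, 0 and 1 in Hox-URE and 13, 6 and 5 in URE-AML. It was not tested, and its mean of 0.342 CPM in URE-AML was at least 3.17-fold higher than the floor of 3 counts per library in Hox-WT. *Ifit3* shares 61.8% of its 31-base words with *Ifit3b*, which was at 0 in all libraries, so the split of reads between the 2 copies is uncertain. *Ifit1* had 0 to 6 counts per library. *Oas3*, which encodes an oligoadenylate synthetase and was not tested either, had 5, 5 and 4 counts in Hox-WT, 2, 6 and 4 in Hox-URE and 16, 8 and 7 in URE-AML, which lay above both Hox lines.

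*Isg20*, an exonuclease of single-stranded RNA, was at 0.674, 2.07 and 2.11 CPM in Hox-WT, 3.71, 9.57 and 12.2 CPM in Hox-URE and 0.888, 1.71 and 1.29 CPM in URE-AML. Hox-URE lay above both other lines, which overlapped. The log2 fold change was 2.38 ± 0.51 in Hox-URE against Hox-WT (adjusted p = 0.00298), -2.71 ± 0.53 in URE-AML against Hox-URE (adjusted p = 0.00137) and -0.33 ± 0.53 in URE-AML against Hox-WT (adjusted p = 0.622).

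*Cmpk2*, a mitochondrial nucleotide kinase, was at 6.63, 8.5 and 7.81 CPM in Hox-WT, 1.06, 2.49 and 3.11 CPM in Hox-URE and 3.31, 5.47 and 4.63 CPM in URE-AML. The lines did not overlap, with Hox-WT highest and Hox-URE lowest. It was lower in Hox-URE than Hox-WT by -1.80 ± 0.35 (adjusted p = 0.00173). The rise from Hox-URE to URE-AML, 1.02 ± 0.36 (adjusted p = 0.0301), lost its call without Hox-URE library 2 (1.13) or URE-AML library 2 (0.86) or 3 (1.00), with an adjusted p of 0.00879 to 0.137 over the alternatives. The difference between URE-AML and Hox-WT, -0.78 ± 0.34 (adjusted p = 0.0721), was called without Hox-URE library 1 or 3 (-0.79 in both), with an adjusted p of 0.0102 to 0.319 over the alternatives.

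*Rsad2* encodes viperin, which makes a chain-terminating nucleotide, and lies 12751 bases from *Cmpk2* on chromosome 12 in the opposite orientation. It had 17, 44 and 20 counts in Hox-WT, 4, 23 and 15 in Hox-URE and 1, 7 and 5 in URE-AML. URE-AML lay below Hox-WT and overlapped Hox-URE. The log2 fold change from Hox-WT to URE-AML was -2.31 ± 0.78 (adjusted p = 0.0271), and the ratio of summed counts, Hox-WT over URE-AML, was 5.15 with an exact 95% counting interval of 2.85 to 10.1. The call was lost without Hox-WT library 2 (-1.77) or URE-AML library 1 (-1.81) or 3 (-2.40), with an adjusted p of 0.00606 to 0.11 over the alternatives. Against Hox-URE, URE-AML differed by -1.65 ± 0.81 (adjusted p = 0.105), and by -2.15 and called without Hox-URE library 1, with an adjusted p of 0.0234 to 0.317 over the alternatives.

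*Zbp1*, a sensor of Z-form nucleic acid that can trigger necroptosis, showed the widest gap of the tested members in Hox-URE against Hox-WT. It had 2, 1 and 5 counts in Hox-WT, 77, 197 and 183 in Hox-URE and 44, 45 and 44 in URE-AML. Hox-WT lay near the floor, URE-AML was between and Hox-URE was highest, with no overlap. The ratio of summed counts was 67 for Hox-URE over Hox-WT (exact 95% counting interval 33.7 to 156) and 20.1 for URE-AML over Hox-WT (9.91 to 47.5), intervals that cover counting error only. The fitted log2 fold changes were 6.07 ± 0.61 (adjusted p = 2.05e-05) and 4.27 ± 0.62 (adjusted p = 0.000187), and 6.8 and 5.0 without Hox-WT library 3. From Hox-URE to URE-AML it fell by 1.80 on the log2 scale (SE 0.44, adjusted p = 0.00528).

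*Xaf1*, an antagonist of the apoptosis inhibitor XIAP, was at 1.39, 1.29 and 1.28 CPM in Hox-WT, 0.764, 0.828 and 0.409 CPM in Hox-URE and 6.1, 8.32 and 9.74 CPM in URE-AML. The lines did not overlap, and URE-AML was 6.09-fold above Hox-WT (2.61 ± 0.29, adjusted p = 2.82e-05) and 11.8-fold above Hox-URE (3.56 ± 0.31, adjusted p = 5.36e-06). Hox-URE was called lower than Hox-WT at -0.96 ± 0.31 (adjusted p = 0.0256), a call lost without Hox-WT library 1 (-0.92) or 2 (-0.98), Hox-URE library 3 (-0.73) or library 1 of both Hox lines (-1.02), with an adjusted p of 0.0151 to 0.158 over the alternatives.

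*Rtp4*, a chaperone-like transmembrane protein induced by interferon, was at 5.77, 6.68 and 7.88 CPM in Hox-WT and 2.58, 3.6 and 3.32 CPM in Hox-URE, and had 0 counts in all 3 URE-AML libraries. Hox-URE was 2.14-fold lower than Hox-WT (-1.10 ± 0.25, adjusted p = 0.00603). Against the floor of 3 counts per library, URE-AML was at least 51.7-fold lower than Hox-WT (adjusted p = 1.14e-06) and at least 24.2-fold lower than Hox-URE (adjusted p = 3.48e-06). Its transcripts share 12.5% of their 31-base words with *Gm45338*.

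*Ifi27*, a mitochondrial and nuclear membrane protein, was at 17.9, 20 and 23.9 CPM in Hox-WT, 45.1, 40.4 and 45.3 CPM in Hox-URE and 38.1, 40.8 and 43.6 CPM in URE-AML. Both UREd/d lines lay above Hox-WT and overlapped each other. The log2 fold change was 1.08 ± 0.12 in Hox-URE (adjusted p = 4.75e-05) and 0.99 ± 0.12 in URE-AML (adjusted p = 6.36e-05) against Hox-WT. *Bst2* (tetherin, which holds budding virus at the membrane) and *Eif2ak2* (PKR, which stops translation on double-stranded RNA) kept means of 27.8 to 39.4 and 22.1 to 31.2 CPM in the lines and were called in no comparison. Without Hox-URE library 1, *Bst2* was called lower in URE-AML than Hox-URE (-0.75, against -0.50 with all libraries), and without Hox-URE library 2, *Eif2ak2* was called higher (0.62, against 0.50). Their adjusted p ranged over the alternatives from 0.000459 to 0.741 for *Bst2* and from 0.00519 to 0.808 for *Eif2ak2* in that comparison. *Ifi35* differed by 0.40 ± 0.10 between the Hox lines (adjusted p = 0.00767) and by -0.48 ± 0.10 between URE-AML and Hox-URE (adjusted p = 0.00229), both under the fold threshold.

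ISG15 is a ubiquitin-like protein, and its gene and the gene of its protease were highest in different lines. *Usp18*, which removes ISG15 from proteins and also blocks signalling at IFNAR2, was at 0.45, 0.321 and 0.484 CPM in Hox-WT, 8.01, 7.62 and 7.25 CPM in Hox-URE and 0.161, 0.0951 and 0.214 CPM in URE-AML. The lines did not overlap, and the Hox-URE libraries were close to each other. It was 18-fold higher in Hox-URE than Hox-WT (4.17 ± 0.29, adjusted p = 1.42e-06). URE-AML, with 4, 2 and 5 counts, was lower than Hox-URE by -5.54 ± 0.33 (adjusted p = 3.19e-07) and than Hox-WT by -1.37 ± 0.37 (adjusted p = 0.00914). The ratio of summed counts, Hox-URE over URE-AML, was 48.2 with an exact 95% counting interval of 26.7 to 97.1.

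*Isg15* had 7, 15 and 5 counts in Hox-WT, 3, 7 and 3 in Hox-URE and 15, 32 and 44 in URE-AML, or 0.606 to 1.89 CPM in the last. On the CPM scale URE-AML lay above both Hox lines, which overlapped. It was 4.08-fold higher in URE-AML than Hox-WT (2.03 ± 0.56, adjusted p = 0.0105) and 7.11-fold higher than Hox-URE (2.83 ± 0.61, adjusted p = 0.00267). The ratios of summed counts were 4.07 and 7.21, with exact 95% counting intervals of 2.63 to 6.51 and 4.01 to 14.1. The first call was lost without Hox-WT library 3 (1.71), and the alternatives gave adjusted p values of 0.00503 to 0.0502. The Hox lines differed by -0.80 ± 0.66 (adjusted p = 0.335).

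The genes around ISG15 differed in where they were high. *Uba7*, its activating enzyme, was higher in Hox-URE than Hox-WT (1.44, adjusted p = 0.00202), while *Ube2l6*, its conjugating enzyme, was higher in URE-AML than Hox-WT (2.84, adjusted p = 0.00164) and Hox-URE (2.52, adjusted p = 0.0033). *Herc6*, the mouse ligase for ISG15, had means of 8.46, 8.54 and 8.54 CPM in the order Hox-WT, Hox-URE, URE-AML (log2 fold changes of 0.00 to 0.01, SE 0.25), with 13.8% of its 31-base words in other genes. *Trim25*, a ubiquitin and ISG15 ligase that activates RIG-I, was at 69.9, 69.7 and 64 CPM in Hox-WT, 22.9, 21.9 and 16.7 CPM in Hox-URE and 72.8, 65.1 and 61.7 CPM in URE-AML. Hox-URE stood alone, 3.3-fold below Hox-WT (-1.72 ± 0.13, adjusted p = 2.75e-06) and 3.24-fold below URE-AML (1.69 ± 0.13, adjusted p = 2.07e-06), and URE-AML and Hox-WT overlapped (-0.03 ± 0.12, adjusted p = 0.863).

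*Parp9* and *Parp14*, ADP-ribosyltransferases 66925 bases apart on chromosome 16, were called only between the UREd/d lines, and in opposite directions. *Parp9* was at 16.2, 27.8 and 30.3 CPM in Hox-URE and at 14.8 CPM in each URE-AML library, a difference of -0.74 ± 0.25 (adjusted p = 0.0252). *Parp14* was at 9.35, 16.7 and 17.4 CPM in Hox-URE and at 24.6, 25.1 and 24.7 CPM in URE-AML, a difference of 0.78 ± 0.23 (adjusted p = 0.0147). The *Parp9* call was lost without Hox-URE library 2 (-0.65) or 3 (-0.58) or any 1 URE-AML library (-0.74 each), and the *Parp14* call without Hox-URE library 1 (0.54). Over the alternatives the adjusted p was 6.51e-05 to 0.274 for *Parp9* and 0.00266 to 0.207 for *Parp14*. Against Hox-WT, *Parp9* in URE-AML was called lower without Hox-WT library 1 (-0.67, against -0.47 with all libraries, adjusted p 0.000575 to 0.793 over the alternatives).

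**Figure D3:**
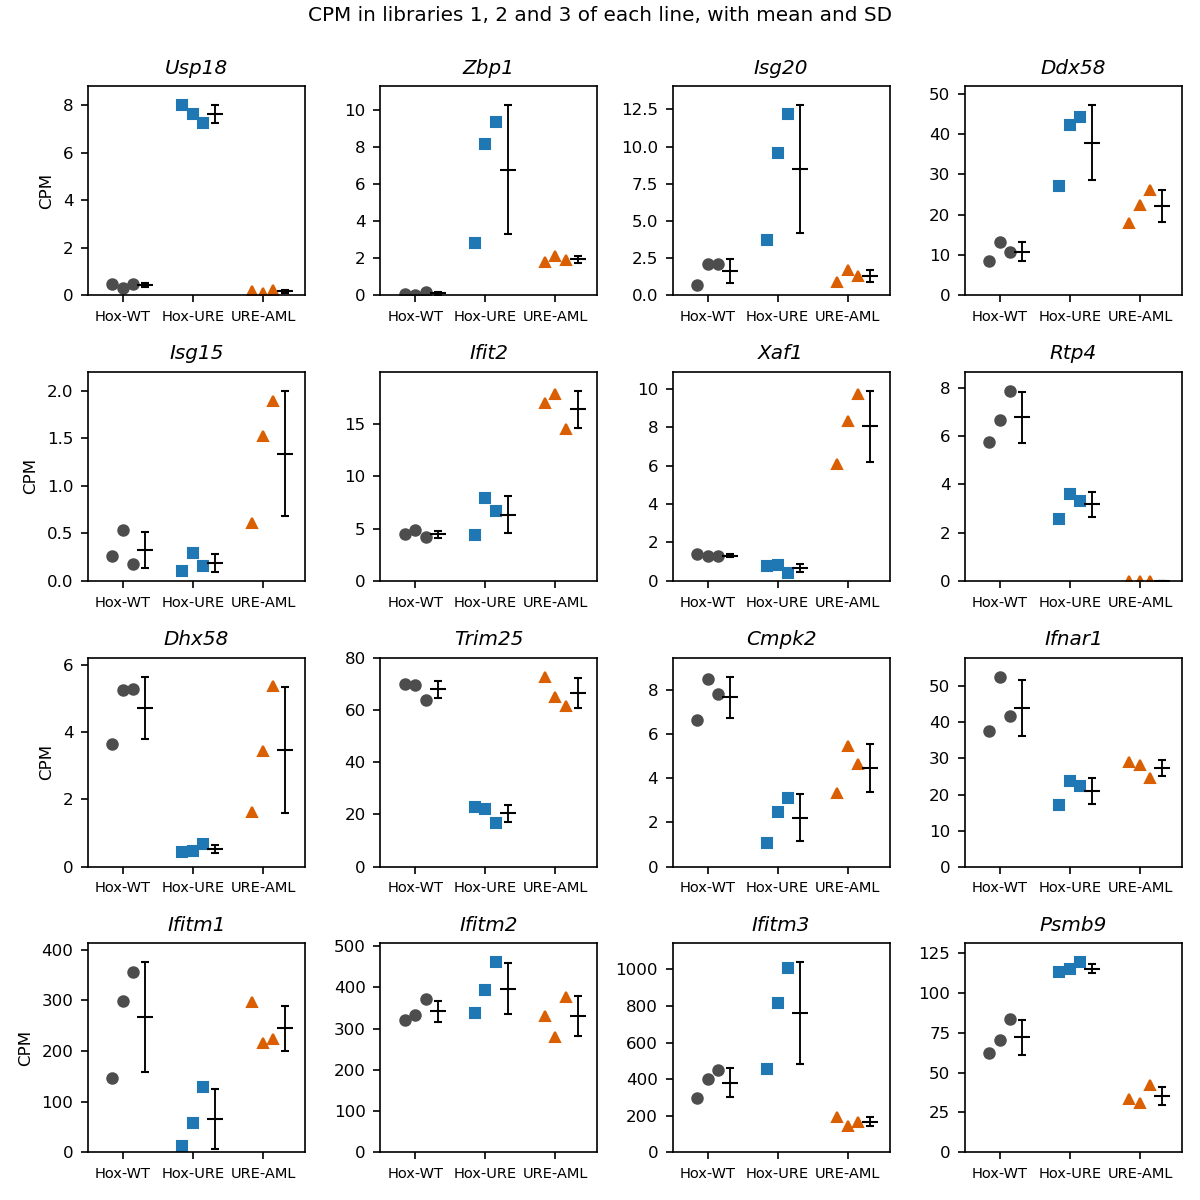
CPM of 16 members in libraries 1, 2 and 3 of each line, from left to right, with the mean and SD of the 3 libraries as a bar. *Usp18*, *Zbp1* and *Isg20* are highest in Hox-URE, *Isg15*, *Ifit2* and *Xaf1* in URE-AML, and *Rtp4* is at 0 in URE-AML.

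The 3 antigen processing genes moved together. *Psmb8* and *Psmb9* encode catalytic subunits of the immunoproteasome and *Tap1* encodes a subunit of the peptide transporter of MHC class I. *Psmb9* was at 62.1, 70.1 and 83.8 CPM in Hox-WT, 113, 115 and 119 CPM in Hox-URE and 33.5, 31.2 and 42 CPM in URE-AML. *Tap1* was at 136, 163 and 169 CPM in Hox-WT, 249, 226 and 211 CPM in Hox-URE and 75.9, 91.2 and 87.7 CPM in URE-AML. *Psmb8* was at 274, 295 and 327 CPM in Hox-WT, 460, 410 and 425 CPM in Hox-URE and 192, 192 and 209 CPM in URE-AML. For each of the 3 genes the lines did not overlap, and the order was Hox-URE, Hox-WT and URE-AML from high to low.

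All 3 were called lower in URE-AML than Hox-URE, by -1.70 ± 0.14 for *Psmb9* (adjusted p = 3.4e-06), -1.43 ± 0.11 for *Tap1* (adjusted p = 2.99e-06) and -1.13 ± 0.10 for *Psmb8* (adjusted p = 4.28e-06). All 3 were also called lower in URE-AML than Hox-WT, by -1.02, -0.88 and -0.60 (adjusted p = 0.000114, 8.73e-05 and 0.000344). The call of *Psmb8* was lost without Hox-WT library 3 (-0.54) or URE-AML library 1 (-0.57) or 2 (-0.58), where it fell under the fold threshold, with an adjusted p of 2.37e-09 to 0.477 over the alternatives. Between the Hox lines, *Psmb9* was called higher in Hox-URE at 0.68 ± 0.13 (adjusted p = 0.00183), and *Tap1* (0.55 ± 0.11, adjusted p = 0.00219) and *Psmb8* (0.53 ± 0.09, adjusted p = 0.000922) were under the fold threshold. Without Hox-WT library 1 *Psmb9* was at 0.58 and not called, without Hox-WT library 3 *Tap1* was at 0.60 and *Psmb8* at 0.59 and both were called, and without Hox-URE library 3 *Tap1* was at 0.60 and called. The adjusted p over the alternatives was 1.5e-05 to 0.277 for *Psmb9*, 2.38e-05 to 0.757 for *Tap1* and 7.62e-08 to 0.89 for *Psmb8*.

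The 3 genes are neighbours in the MHC region of chromosome 17. *Psmb9* and *Tap1* are divergent, with annotations that overlap by 212 bases and RefSeq start sites 226 bases apart, and *Psmb8* begins 495 bases after *Tap1*. Libraries were stranded, but whether the counting used strand is not given in the sources used here, so reads of the overlap could fall to either gene. The median of the 681 tested genes of chromosome 17 was -0.01, -0.03 and -0.02 in the 3 comparisons. The windows of *Tap1* and *Psmb9* share 275 bases, so 1 sequence serves both. It is given along the strand of *Tap1* (chr17:34187306-34187605, plus strand), holds no ISRE-type letters, and therefore has no capitals.
Tap1: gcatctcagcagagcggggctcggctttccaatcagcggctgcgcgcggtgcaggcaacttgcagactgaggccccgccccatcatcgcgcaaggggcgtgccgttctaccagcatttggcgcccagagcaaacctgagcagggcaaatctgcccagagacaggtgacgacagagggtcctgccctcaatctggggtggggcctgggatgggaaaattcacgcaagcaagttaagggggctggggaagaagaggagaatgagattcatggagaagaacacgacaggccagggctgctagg

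Other genes of antigen processing, from a list of 7, were mixed. *B2m*, the light chain of MHC class I, was higher in Hox-URE than Hox-WT (1.56, adjusted p = 0.00711) and lower in URE-AML than Hox-URE (-1.95, adjusted p = 0.00181). *Nlrc5*, the transactivator of MHC class I genes, had means of 29.2, 41.1 and 4.75 CPM in the order Hox-WT, Hox-URE, URE-AML and was lower in URE-AML than Hox-WT (-2.62, adjusted p = 4.55e-07) and Hox-URE (-3.11, adjusted p = 1.61e-07). *Tap2*, the partner subunit of *Tap1*, was higher in Hox-URE than Hox-WT (1.00, adjusted p = 5.25e-06), and *Psmb10*, the remaining immunoproteasome subunit, was lower (-0.73, adjusted p = 0.000131). In the 3 comparisons, 2, 0 and 1 of the 7 were called higher and 1, 1 and 2 lower. Calls fell on 42.9%, 14.3% and 42.9% of the 7, against 37.2%, 43.2% and 42.7% of all tested genes.

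Across all 29 members with a promoter window, 13 (44.8%) held the ISRE-type letters, against 3.99% of the 27025 genes with a window. These were *Bst2*, *Ddx58*, *Eif2ak2*, *Ifih1*, *Ifit1*, *Ifit3*, *Ifitm2*, *Ifitm3*, *Isg15*, *Oas1a*, *Oas3*, *Rsad2* and *Stat2*. GAS-type letters, TTC followed after any 3 bases by GAA, read the same on both strands and were in 10 members (34.5%), against 9.55% of all genes with a window. The 2 motifs overlap at *Ifitm3* and *Bst2*. A match describes letters in the window and was not tested as a site of binding.

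The ISRE-type letters were in 9 of 22 tested members with a window and in 4 of 7 members that were not tested. *Isg15* (chr4:156200769-156201068, minus strand) has 3 overlapping matches from 78 to 57 bases upstream of the start site, and *Ifit3* (chr19:34583279-34583578, plus strand) has 2 on the opposite strand. They are shown because both genes stayed low, at 1.89 CPM or less in every library, with such letters close to the start site.
Isg15: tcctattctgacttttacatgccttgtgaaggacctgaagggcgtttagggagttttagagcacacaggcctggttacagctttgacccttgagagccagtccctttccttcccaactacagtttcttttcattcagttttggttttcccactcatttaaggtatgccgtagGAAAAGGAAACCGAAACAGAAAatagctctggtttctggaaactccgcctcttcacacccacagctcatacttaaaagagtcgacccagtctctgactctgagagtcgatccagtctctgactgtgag
Ifit3: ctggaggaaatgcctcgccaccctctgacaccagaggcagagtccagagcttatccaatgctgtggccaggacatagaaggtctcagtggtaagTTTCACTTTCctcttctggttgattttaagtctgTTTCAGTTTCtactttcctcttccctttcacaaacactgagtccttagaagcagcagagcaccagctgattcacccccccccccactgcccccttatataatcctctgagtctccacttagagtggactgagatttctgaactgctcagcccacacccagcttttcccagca

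**Figure D4:**
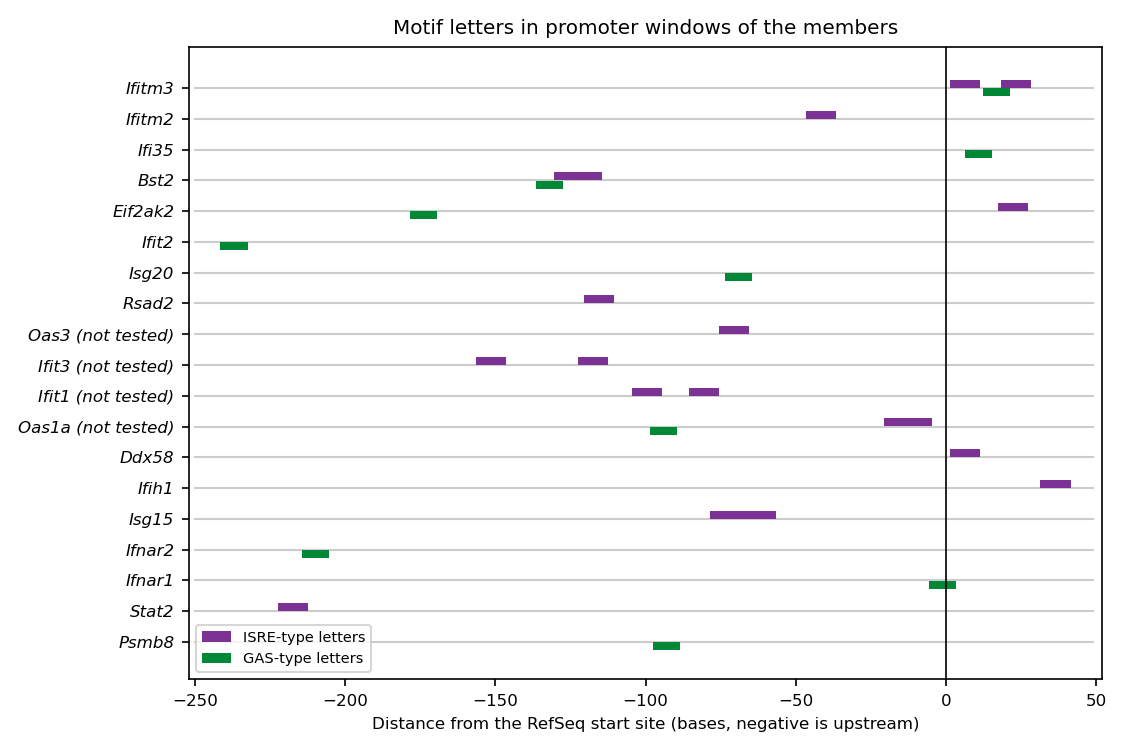
Positions of ISRE-type and GAS-type letters, as bars, in the windows of the 19 members that hold at least 1 of them, with distance from the RefSeq start site in bases on the x axis. Grey lines are the windows, and the ISRE-type match farthest from the start site is that of *Stat2*, 222 bases upstream.

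Of the pathway genes outside the list, 19 receptors, kinases and factors were all tested, with 6, 7 and 5 called higher and 4, 3 and 3 lower for Hox-URE against Hox-WT, URE-AML against Hox-WT and URE-AML against Hox-URE. Calls fell on 52.6%, 52.6% and 42.1% of the 19, against 37.2%, 43.2% and 42.7% of all tested genes. *Tyk2* was higher in URE-AML than Hox-WT (1.01, adjusted p = 9.49e-06). *Jak1* was called higher in Hox-URE (0.65, adjusted p = 0.000488), and not without Hox-WT library 1 (0.57) or Hox-URE library 2 (0.58), with an adjusted p of 3.13e-08 to 0.323 over the alternatives. *Irf5*, a factor downstream of Toll-like receptors, fell from a mean of 11.5 CPM in Hox-WT to 0.0827 CPM in Hox-URE and 0.0293 CPM in URE-AML (adjusted p = 9.22e-07 and 3.57e-07). The feedback inhibitors *Socs1* and *Socs3* were higher in both UREd/d lines than Hox-WT, *Socs1* by 2.66 and 2.73 (adjusted p = 0.000512 and 0.000335) and *Socs3* by 2.91 and 3.87 (adjusted p = 7.25e-07 and 5.92e-08). *Irf7*, which amplifies type I interferon, had means of 1.1, 1.35 and 1.72 CPM and was not called, nor was *Irf3* (0.41, 0.22 and -0.19). *Ifngr1*, the binding subunit for interferon gamma, had means of 43.6, 16.1 and 366 CPM in the order Hox-WT, Hox-URE, URE-AML and was called in all 3 comparisons (adjusted p = 4.66e-06, 1.5e-08 and 3.5e-09).

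Among 17 genes of nucleic acid sensing, 15 were tested, with 1, 4 and 4 called higher and 4, 6 and 3 lower. Calls fell on 33.3%, 66.7% and 46.7% of the 15, against 37.2%, 43.2% and 42.7% of all tested genes. The DNA sensor *Cgas* was lower in Hox-URE (-1.43, adjusted p = 1.69e-05) and URE-AML (-1.23, adjusted p = 3.21e-05) than Hox-WT. Its adaptor *Sting1* had means of 72.1, 35 and 10.8 CPM, with -1.04 in Hox-URE (adjusted p = 0.00137) and -2.74 in URE-AML (adjusted p = 1.93e-06). *Mavs*, the adaptor of RIG-I and MDA5, was lower in URE-AML than Hox-WT (-1.26, adjusted p = 1.73e-06) and differed by -0.31 in Hox-URE (adjusted p = 0.0179), under the fold threshold. *Ikbke*, a kinase that acts on IRF3, was higher in URE-AML than Hox-WT (3.09, adjusted p = 2.93e-07). *Tlr7*, a sensor of single-stranded RNA, had a mean of 30.4 CPM in URE-AML and of 0.0724 and 0.0121 CPM in Hox-WT and Hox-URE, both under the floor, and *Tlr3* was too low to be tested.

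Of 52 further interferon-stimulated genes, 40 were tested, with 13, 13 and 9 called higher and 9, 10 and 10 lower. Calls fell on 55.0%, 57.5% and 47.5% of the 40, against 37.2%, 43.2% and 42.7% of all tested genes. Their median log2 fold change was 0.04, 0.16 and -0.16 in the 3 comparisons. *Pml*, a scaffold of nuclear bodies, had means of 66.2, 126 and 288 CPM in the order Hox-WT, Hox-URE, URE-AML and was called between Hox-URE and Hox-WT (adjusted p = 0.000452) and between URE-AML and Hox-URE (adjusted p = 6.37e-05). *Sp100*, another nuclear body gene, was higher in both UREd/d lines than Hox-WT (2.24 and 2.62, adjusted p = 3.81e-05 and 8.83e-06). *Slfn2*, which guards quiescence of lymphoid cells, was at 6.47, 96.7 and 4.96 CPM, highest in Hox-URE (3.90 against Hox-WT, adjusted p = 1.48e-06). *Parp12*, *Samd9l* and the chemokine gene *Cxcl10* were higher in URE-AML than Hox-WT, by 4.67, 3.28 and 5.15 (adjusted p = 3.32e-07, 5.55e-07 and 8.98e-06). *Epsti1* was at a mean of 9.79 CPM in Hox-WT and of 0.0552 and 0.0158 CPM in Hox-URE and URE-AML, with counts of 0, 4 and 0 and of 0, 1 and 0 in their libraries (adjusted p = 1.44e-05 in Hox-URE and 6.76e-06 in URE-AML).

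Library 1 was low for many members. In both Hox lines it was the lowest of the 3 for 17 of the 29 tested members, against 20.9% of all tested genes. In URE-AML library 1 was the lowest for 15 of the 29, against 32.9% of all tested genes. *Ifitm1*, *Isg20*, *Ifitm3*, *Cmpk2* and *Psmb9* were among the 17, and *Usp18*, *Zbp1* and *Trim25* were not. The mast cell gene *Cpa3* was at 362, 564 and 716 CPM in Hox-WT and 768, 2790 and 4430 CPM in Hox-URE, and *B2m* at 105, 190 and 245 CPM and 253, 554 and 790 CPM. Both were lowest in library 1 as well, and their part in the levels of the members was not tested. With library 1 of both Hox lines left out, 3 calls made with all libraries were lost, *Xaf1* between the Hox lines and *Cmpk2* (0.67) and *Parp14* (0.54) between URE-AML and Hox-URE. Another 5 were gained, *Ifit2* (0.70) between the Hox lines, *Parp9* (-0.67) and *Cmpk2* (-0.87) between URE-AML and Hox-WT, and *Rsad2* (-2.15) and *Bst2* (-0.74) between URE-AML and Hox-URE.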

How the data were processed

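The 9 libraries, 3 of each line, were stranded and held poly-A RNA. The authors quantified the reads with Salmon on GRCm38 and summed transcripts to genes with tximport. The deposited values are estimated counts per gene, as whole numbers that sum to a different total in each library. The annotation release and any scaling for transcript length are not given in the sources used here. A change in transcript use can therefore alter a count.

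Groups came from the sample labels. One model of all 9 libraries, with TMM scaling and line as its single factor, was fitted in edgeR 4.0.16 (R 4.3.3). filterByExpr with a minimum count of 10 kept 13082 of 54347 genes and set aside 0.0499% of counts. The common biological coefficient of variation came to 0.173. Tests were two-sided quasi-likelihood F tests, and each standard error is the size of the log2 fold change over the square root of F. The code was tested on simulated data. Counting intervals are exact (Clopper-Pearson, 95%) and, like floors of 3 counts per library, cover counting error only. Coordinates, lengths and 31-base words came from GENCODE M21, and promoters from RefSeq on GRCm38.p6.

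The members and lists were chosen with earlier results of these data known. All members could be named. Of the other pathway genes, those called, the interferon genes and 10 signalling genes could be. *Spi1* checked the labels, and marker genes appear by list.

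Between the Hox lines, deviations of same-numbered libraries correlated across genes at 0.36, 0.18 and 0.25, so the replicate numbers were taken to pair these libraries. The main fit, with line as its single factor, left this pairing out. The block with the replicate number changed 1 call between the Hox lines, that of *Ifih1*. Alternatives were other scalings, filters and thresholds, the 6 libraries compared only, the replicate block, DESeq2 1.42.0, each library left out and, chosen after seeing the data, library 1 of both Hox lines left out.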

Additional observations from a re-analysis of the deposited data

How the results depend on the processing

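Leaving out 1 library gave 7 to 10 members called higher and 5 to 7 lower in Hox-URE against Hox-WT, 6 to 8 and 6 to 9 for URE-AML against Hox-WT, and 7 to 9 and 9 to 12 for URE-AML against Hox-URE. For URE-AML against Hox-WT, a filter of at least 10 counts in every library left 4 calls above and 5 below, because fewer members were tested. Testing against a fold change of 1.5, which is stricter, left 5 below in that comparison and 5 above for URE-AML against Hox-URE. The other counts stayed within 1.5 times, and DESeq2 gave the same counts as edgeR. No member's difference that was called changed sign under any alternative run. Of the members called, 11 of 16, 11 of 15 and 13 of 18 were called under every alternative that gave a value in the 3 comparisons. The stricter test lost 13 calls: *Ifitm1*, *Ifitm3*, *Ifih1*, *Xaf1* and *Psmb9* between the Hox lines, *Rsad2*, *Ifnar1* and *Psmb8* between URE-AML and Hox-WT, and *Ifitm1*, *Ddx58*, *Parp9*, *Parp14* and *Cmpk2* between URE-AML and Hox-URE. With library size only, *Psmb9* (0.57) and *Ifih1* (0.51) lost their calls between the Hox lines, and *Stat2* (0.62) and *Eif2ak2* (0.61) gained calls between URE-AML and Hox-URE. With only the 6 libraries compared, *Ifih1* (0.61) and, between URE-AML and Hox-URE, *Cmpk2* (1.00) lost their calls, and *Cmpk2* (-0.78) gained one between URE-AML and Hox-WT, as it did with no filter on low counts (-0.77).

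Same-numbered libraries of URE-AML and the Hox lines correlated at 0.04 to 0.15 in their deviations and share only a number. With the replicate number as a block, calls for URE-AML against Hox-WT were 7 above and 9 below, with *Cmpk2* added (-0.80), and for URE-AML against Hox-URE 8 above and 11 below, with *Rsad2* added (-1.62). Between the Hox lines the block left 8 higher and 7 lower. Depth limits what can be said of the 10 members that were not tested, which had at most 20 counts in any library.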
